A study of Mus musculus with 3 samples.

Results

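The insulin-like growth factor (IGF) family was followed through 3 kinds of cultured mouse heart cell, as the messenger RNA of its ligands, receptors and binding proteins. The 10 genes taken were Igf1, Igf2, Igf1r, Igf2r, Igfbp2, Igfbp3, Igfbp4, Igfbp5, Igfbp6 and Igfbp7, chosen by symbol from the 18245 genes of the deposited table. Igf2 and Igfbp6 had also drawn attention by large changes in opposite directions, so their changes are described without a test in every comparison. The other 8 genes were tested. CDC are cardiosphere-derived cells, grown out of explants of ventricle epicardium from adult C57BL/6 mice by way of floating spheres. CDC-EpiC is 1 epithelial clone, lifted with a cloning cylinder from CDC cultures in which clones formed over 2 weeks in 10 µM SB-431542, which inhibits the TGF-beta type I receptor kinase. Whether the inhibitor was present when RNA was taken is not given in the sources used here. pEpiC are primary epicardial cells released enzymatically from adult C57BL/6 hearts. CDC and pEpiC grew in different media, so cell kind and medium cannot be told apart. No allele was altered in any kind.

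Each kind has 3 libraries, with total expected counts of 22008833 to 22756045. Libraries of a kind differed by more than read sampling allows (chi-square per degree of freedom 4.89 to 23.0), but whether they came from separate animals or cultures is not given. The labels list 1 sample per kind, and the study's own texts differ on the number of replicates, so n = 3 below means 3 deposited library columns. P-values therefore measure the spread between these libraries, which may be technical, and the spread of the clone holds no difference between clones. Epicardial marker genes were detected in every kind, with summed levels of 485 to 519 CPM (counts per 1000000 counts) in CDC, 4694 to 5490 in CDC-EpiC and 507 to 531 in pEpiC. Single markers differed between CDC and pEpiC, whose sums were alike, and in both directions. Wt1 was at 10.0 CPM in CDC, 119 in CDC-EpiC and 51.1 in pEpiC, Tcf21 at 12.3, 27.9 and 102, and Upk3b at 229, 2656 and 69.4. Tbx18 was at 92.7, 56.4 and 49.2 CPM in the same order, highest in CDC. Msln was at 52.1, 116 and 29.5, Aldh1a2 at 2.31, 2.01 and 20.1, and Lrrn4 at 102, 2122 and 200. Upk3b and Lrrn4 (2122 CPM) supplied most of the sum of the clone. The surface markers of CDC (Eng, Thy1 and Ly6a) summed to 706 to 821, 464 to 522 and 460 to 517 CPM in the same order. Macrophage markers summed to 57.7 to 61.0 CPM in CDC, 22.6 to 25.2 in CDC-EpiC and 309 to 868 in pEpiC, with library 1 at the top. Ptprc had 0, 0 and 1 counts in the CDC libraries and was at 0 in CDC-EpiC. Lyz2 (37.7 CPM) and Csf1r (19.6) supplied most of the sum of CDC. In CDC-EpiC most came from Cd68 (13.3 CPM, against 1.96 in CDC) and Csf1r (9.38). Endothelial markers summed to 7.52 to 8.62 CPM in CDC, 8.55 to 10.0 in CDC-EpiC and 24.5 to 26.8 in pEpiC. Cdh5, Tie1, Emcn and Cldn5 were at 0 in CDC-EpiC, while Egfl7 was highest there, at 7.38 CPM against 5.85 in CDC and 2.05 in pEpiC. Tek, at 17.6 CPM, supplied most of the sum of pEpiC. Cardiomyocyte markers summed to 9.47 to 28.8, 11.7 to 13.7 and 138 to 154 CPM, and Tnnt2 alone gave 145 ± 8.09 CPM in pEpiC, where Myh6, Myh7, Actc1, Myl2 and Pln had at most 1 count per library. CDC libraries 1 and 2 stood apart from library 3, with red blood cell markers at 52.1 and 83.1 CPM against 0.181, 660 and 599 counts of Alb, the serum albumin of liver, against 1, and 191 and 190 counts of the heart muscle myosin Myh6 against 0. The liver list summed to 300 to 341 CPM in CDC, 2236 to 2461 in CDC-EpiC, where Trf (transferrin) supplied nearly all of it and Alb was at 0, and 105 to 115 in pEpiC.

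In this family, Igf1 and Igf2 are secreted growth factors that act through the tyrosine kinase receptor encoded by Igf1r. The protein of Igf2r carries no kinase; it takes up Igf2 for breakdown in lysosomes and sorts lysosomal enzymes that bear mannose 6-phosphate. Igf2 is expressed from the paternal allele and Igf2r mostly from the maternal allele in mouse tissues. The secreted binding proteins hold the ligands and limit or prolong their action, and proteases that cut them release ligand. In the embryonic heart, Igf2 from the epicardium drives growth of the underlying muscle.

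The 3 binding proteins Igfbp3, Igfbp5 and Igfbp6 were higher in both CDC-EpiC and pEpiC than in CDC, and the sequences around their start sites are shown because these 3 genes share a direction of change. The windows reach from 250 bases before to 50 bases after the RefSeq start on GRCm38.p6, are 300 bases long, and are given 5′ to 3′ on the strand of the gene, with CpG dinucleotides in capitals. Igfbp3 lies at chr11:7213874-7214173 on the minus strand, Igfbp5 at chr1:72874816-72875115 on the minus strand and Igfbp6 at chr15:102143936-102144235 on the plus strand.
Igfbp3: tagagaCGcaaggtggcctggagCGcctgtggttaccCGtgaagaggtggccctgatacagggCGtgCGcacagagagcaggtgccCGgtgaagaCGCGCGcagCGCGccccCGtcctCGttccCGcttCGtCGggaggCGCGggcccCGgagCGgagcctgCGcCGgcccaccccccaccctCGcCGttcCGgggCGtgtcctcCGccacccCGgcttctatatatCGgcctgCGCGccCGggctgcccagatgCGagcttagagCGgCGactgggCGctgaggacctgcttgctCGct
Igfbp5: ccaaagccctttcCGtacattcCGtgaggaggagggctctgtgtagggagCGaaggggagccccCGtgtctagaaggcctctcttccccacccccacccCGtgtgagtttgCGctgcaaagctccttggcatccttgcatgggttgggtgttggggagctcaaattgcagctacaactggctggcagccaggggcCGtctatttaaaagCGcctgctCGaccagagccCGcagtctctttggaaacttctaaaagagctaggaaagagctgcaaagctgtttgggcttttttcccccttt
Igfbp6: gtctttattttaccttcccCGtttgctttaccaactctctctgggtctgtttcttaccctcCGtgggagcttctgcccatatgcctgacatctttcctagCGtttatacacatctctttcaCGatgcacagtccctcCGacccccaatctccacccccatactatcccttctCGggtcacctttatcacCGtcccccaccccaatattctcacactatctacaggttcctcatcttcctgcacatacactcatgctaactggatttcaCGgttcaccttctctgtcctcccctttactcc

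The Igfbp3 window held 37 CpG dinucleotides at 71.7% GC, a number reached by 5.58% of the 32851 windows of all genes, where the median was 7. Igfbp5 held 10 at 56.3% GC and Igfbp6 held 8 at 49.7% GC, numbers reached by 43.5% and 48.7% of windows. No letters GGGCGG (the GC box, searched on both strands) stood in these 3 windows, against 35.7% of all windows that hold them. The letters TATAAA of a TATA box, also searched on both strands, were found in Igfbp6 alone of the 3, on the opposite strand (so that it reads as tttata in the line shown), with the first base at −148 from the start, and in 13.6% of all windows. Only these exact letters were searched, so variants such as tatatat in the Igfbp3 line and tatttaaa in the Igfbp5 line were not counted. Igfbp3 was thus CpG-rich, while Igfbp5 and Igfbp6 lay near the median of all windows. All 10 genes matched the RefSeq table. Igf2 had 4 starts there, and since gene counts cannot be assigned to a start, none is shown.

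Gene positions were taken from GENCODE M21 (GRCm38), where all 10 genes are protein-coding. Igf2 lies on chromosome 7 from 142650766 to 142666816 (minus strand) and Igfbp6 on chromosome 15 from 102144362 to 102149511 (plus strand), so the annotated Igfbp6 start lies downstream of the RefSeq start. Igf1 is on chromosome 10 from 87858265 to 87937042, Igf1r on chromosome 7 from 67952827 to 68233668 and Igf2r on chromosome 17 from 12682406 to 12769664. Igfbp2 (chromosome 1, 72824503 to 72852474) and Igfbp5 (72857932 to 72874884) are neighbours, 5457 bases apart with 0 genes between, yet moved in opposite directions in CDC-EpiC and in pEpiC. Igfbp3 (chromosome 11, 7206086 to 7213923) lies 3539 bases from Igfbp1. Igfbp4 is on chromosome 11 from 99041244 to 99054392 and Igfbp7 on chromosome 5 from 77349240 to 77408041. Igf2 overlaps Igf2os, Mir483 and Gm49394, Igf2r overlaps the antisense Airn, Igf1 overlaps Igf1os, and Igfbp7 overlaps Polr2b and Gm34648. Whether counting used strand is not given, so counts of these 4 genes may hold reads of their partners.

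**Figure D1:**
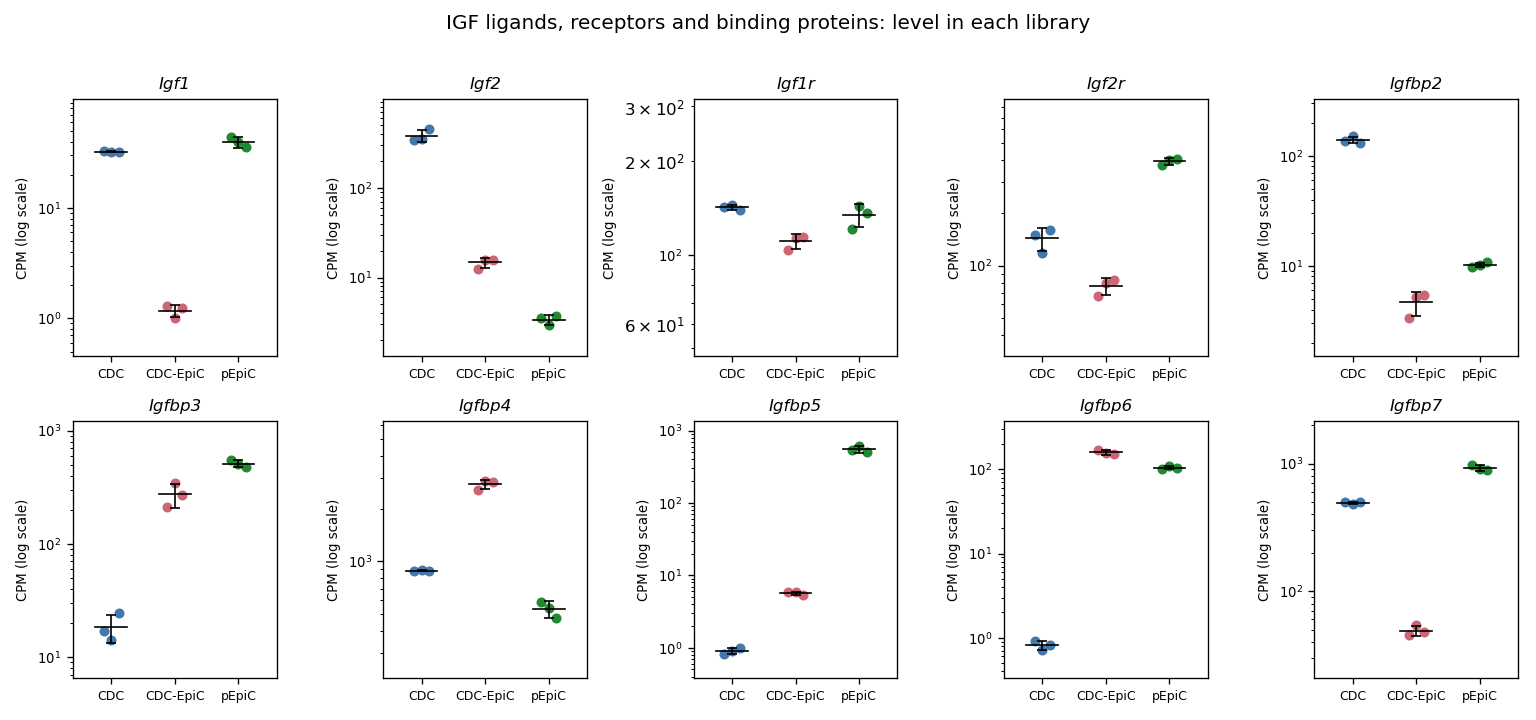
Level of each of the 10 genes in every library, in TMM-scaled CPM on log axes that differ between panels. Points are single libraries, horizontal lines the mean and error bars the SD (n = 3). Igf2 was highest in CDC, Igfbp3, Igfbp5 and Igfbp6 were lowest there, and the libraries of CDC and pEpiC overlapped for Igf1r alone.

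The ligands separated the kinds in different ways. Levels are CPM after TMM scaling, and values after ± are the SD over 3 libraries. Igf2 was at 341, 355 and 448 CPM in CDC, at 12.6, 15.8 and 15.8 in CDC-EpiC, and at 3.51, 2.92 and 3.68 in pEpiC. No library of any kind overlapped with another kind, and the order was CDC, CDC-EpiC, pEpiC. The mean of 382 ± 58.2 CPM in CDC was 25.9-fold that of CDC-EpiC (14.8 ± 1.86) and 113-fold that of pEpiC (3.37 ± 0.399), log2 changes of −4.70 and −6.86. Among the 13526 genes of the comparison of pEpiC with CDC, 14 had a lower log2 change. CDC library 3, which had almost no red blood cell markers and 1 count of Alb, had the highest Igf2 level. Igf2 in CDC-EpiC exceeded that in pEpiC by a log2 change of 2.13. These values chose the gene and carry no test. In bulk RNA, fewer cells of a type and less RNA per cell cannot be told apart, for Igf2 and for every gene that follows.

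Igf1 was at 32.9, 32.0 and 32.5 CPM in CDC, at 1.28, 0.999 and 1.24 in CDC-EpiC, and at 44.4, 39.3 and 35.4 in pEpiC. The clone thus stood far below both other kinds, on 22 to 29 counts per library. Igf1 fell by 4.79 on the log2 scale against CDC (SE 0.12, adjusted p 7.7e-14; the test used throughout was the quasi-likelihood test of edgeR, adjusted by Benjamini-Hochberg) and by 5.07 against pEpiC (SE 0.13, adjusted p 5.5e-10). Between pEpiC and CDC the libraries did not overlap, but the log2 change was 0.25 (SE 0.08, adjusted p 0.0190). That small difference was not stable: it was −0.26 (adjusted p 0.0241) with an offset for transcript length, and its adjusted p was 0.0862 without pEpiC library 1, 0.0517 without CDC library 1, 0.0521 without CDC library 2 and 0.136 without both of these. Macrophages are a known source of Igf1, and pEpiC library 1 held both the highest Igf1 level and macrophage markers at 868 CPM, against 336 and 309 in libraries 2 and 3. The part of macrophage RNA in the Igf1 level was not tested.

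The receptors followed different orders of kinds. Igf1r was at 142, 144 and 139 CPM in CDC, 104, 113 and 114 in CDC-EpiC, and 121, 144 and 136 in pEpiC. It was lower in CDC-EpiC than in CDC by 0.37 on the log2 scale (log2 −0.37, SE 0.07, adjusted p 0.00036), without overlap of libraries. Its log2 change between pEpiC and CDC was −0.13 (SE 0.07, adjusted p 0.115), with overlapping libraries, and it turned to 0.37 on the log2(TPM + 1) scale (adjusted p 0.0028) and to −0.83 with the length offset (adjusted p 6.7e-06). Against pEpiC, the clone had a log2 change of −0.28 (SE 0.07, adjusted p 0.0031), which turned to 0.52 with the offset (adjusted p 3.4e-05). The direction for Igf1r in comparisons with pEpiC therefore depends on how transcript length is treated. It was the 1 gene of 10 whose order of kinds differed between CPM and TPM.

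Igf2r was at 150, 118 and 160 CPM in CDC, 66.9, 79.5 and 83.0 in CDC-EpiC, and 373, 401 and 407 in pEpiC. The kinds did not overlap. The level was highest in pEpiC, with a log2 change of 1.42 against CDC (SE 0.10, adjusted p 6.1e-07), and lowest in CDC-EpiC, with log2 −0.91 against CDC (SE 0.11, adjusted p 2.9e-06) and −2.37 against pEpiC (SE 0.08, adjusted p 2.5e-09). Compared per transcript length, as TPM, which is scaled to length and library, Igf2 stood at 185 ± 30.8 against 27.9 ± 5.17 for Igf2r in CDC, at 7.55 ± 0.932 against 15.7 ± 1.90 in CDC-EpiC, and at 2.35 ± 0.431 against 105 ± 5.99 in pEpiC. The ligand message was thus the more abundant of this pair in CDC and the less abundant in CDC-EpiC and in pEpiC. That order rests in part on the Igf2 values that chose the gene, and it carries no test.

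Of the binding proteins, Igfbp6, which prefers Igf2 as its ligand, was nearly absent from CDC. It had 20, 16 and 18 counts in the CDC libraries, or 0.923, 0.726 and 0.815 CPM, against 171, 157 and 152 CPM in CDC-EpiC and 101, 110 and 103 in pEpiC. The means of 160 ± 9.71 in CDC-EpiC and 105 ± 4.64 in pEpiC were 195-fold and 127-fold that of CDC, log2 changes of 7.59 and 6.94. In CDC-EpiC against CDC, 4 of 12976 genes had a higher log2 change. The clone was above pEpiC by a log2 change of 0.61, which was 0.23 on the TPM scale and 0.06 with the length offset, so the order of CDC-EpiC and pEpiC is not settled for Igfbp6. As for Igf2, these values carry no test.

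Igfbp3, the main carrier of IGF in blood plasma, was also lowest in CDC. Its level was 16.9, 14.3 and 24.3 CPM in CDC, 211, 343 and 270 in CDC-EpiC, and 553, 504 and 477 in pEpiC. No kinds overlapped, although the spread within CDC and CDC-EpiC was wider than for most members. The log2 change against CDC was 3.89 in CDC-EpiC (SE 0.19, adjusted p 7.9e-11) and 4.75 in pEpiC (SE 0.17, adjusted p 5.1e-09), and the clone was below pEpiC by a log2 change of −0.90 (SE 0.14, adjusted p 0.00020).

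Igfbp5, a binding protein that also attaches to extracellular matrix, had the widest range of the family. It had 18, 20 and 22 counts in CDC, or 0.831, 0.908 and 0.996 CPM. CDC-EpiC reached 5.88, 5.81 and 5.36 CPM and pEpiC 539, 615 and 500. The clone thus stood above CDC (log2 2.63, SE 0.18, adjusted p 5.6e-09) and far below pEpiC (log2 −6.60, SE 0.10, adjusted p 3.5e-11). The pEpiC mean was 605-fold that of CDC (log2 9.19, SE 0.14, adjusted p 4.5e-11), and 40 of 13526 genes had a higher log2 change.

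Its neighbour Igfbp2 ran the other way. Igfbp2 was at 137, 150 and 131 CPM in CDC, 3.32, 5.18 and 5.45 in CDC-EpiC, and 9.71, 10.1 and 10.7 in pEpiC. It was lower by 13.7-fold in pEpiC (log2 −3.82, SE 0.08, adjusted p 2.5e-10) and by 30.0-fold in CDC-EpiC (log2 −4.91, SE 0.13, adjusted p 1.4e-13), and lower in the clone than in pEpiC (log2 −1.13, SE 0.17, adjusted p 0.00012).

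Igfbp4, which is cut by the protease Pappa, was the one tested gene that was highest in CDC-EpiC. It was at 881, 888 and 883 CPM in CDC, 2549, 2874 and 2827 in CDC-EpiC, and 586, 545 and 474 in pEpiC. The clone was above CDC (log2 1.63, SE 0.09, adjusted p 2.5e-10) and above pEpiC (log2 2.36, SE 0.09, adjusted p 5.3e-09), while pEpiC was below CDC (log2 −0.77, SE 0.08, adjusted p 1.0e-05).

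Igfbp7, which binds IGF weakly and is found around vessels and in matrix, had the opposite order. Its level was 498, 481 and 498 CPM in CDC, 45.6, 54.0 and 47.7 in CDC-EpiC, and 980, 903 and 892 in pEpiC. It was 10.0-fold lower in the clone than in CDC (log2 −3.33, SE 0.09, adjusted p 1.2e-13) and 18.8-fold lower than in pEpiC (log2 −4.24, SE 0.08, adjusted p 7.0e-11). The change between pEpiC and CDC was 0.87 (log2, SE 0.06, adjusted p 7.3e-07).

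**Figure D2:**
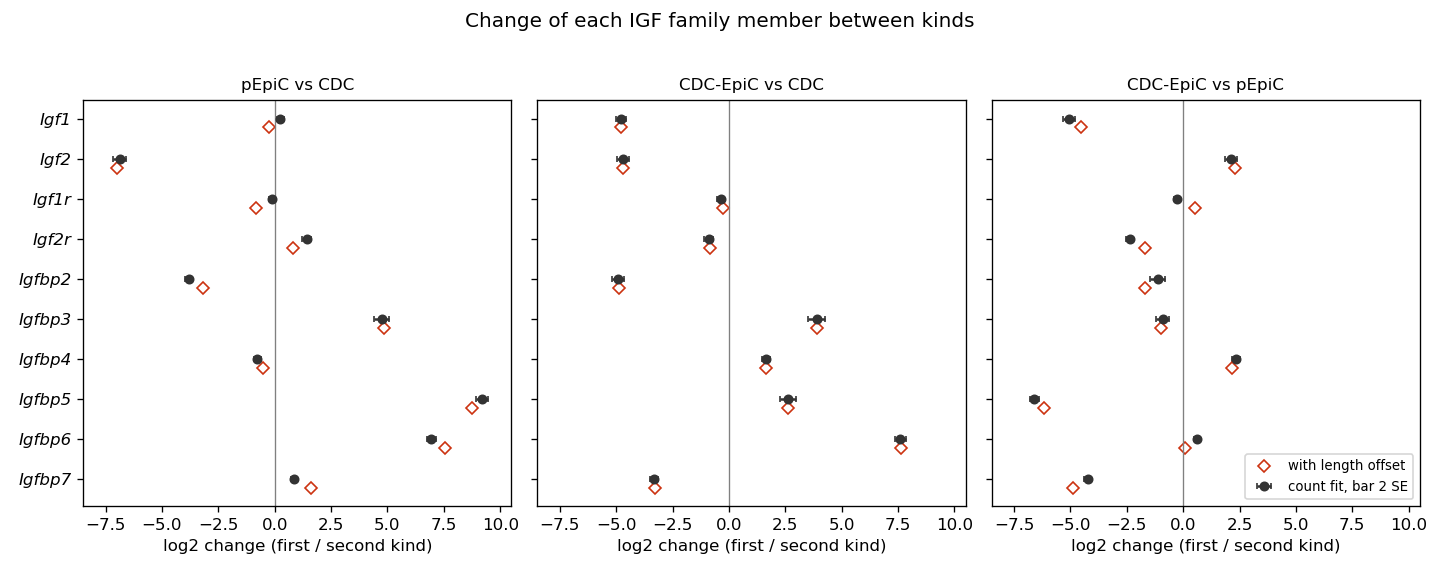
Log2 change of each gene in the 3 comparisons, first kind over second, so that values right of 0 are higher in the first kind. Filled points are the count fit with bars of 2 SE, and open diamonds the fit with an offset for transcript length. Igf1r in both comparisons with pEpiC and Igf1 in pEpiC vs CDC are small changes, and the diamond stands across 0 from the point for Igf1 in pEpiC vs CDC and for Igf1r in CDC-EpiC vs pEpiC.

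Counted over the 8 tested genes, 7 passed the threshold of 0.05 in pEpiC against CDC, where 78.3% of all genes tested did. Of these, 5 were higher (background 39.8%) and 2 lower (38.5%). In CDC-EpiC against CDC all 8 passed, 3 higher and 5 lower, against 68.8% of all genes (34.2% higher, 34.6% lower). In CDC-EpiC against pEpiC all 8 passed, 1 higher and 7 lower, against 81.9% (40.3% higher, 41.5% lower). The share that passed was near the background in pEpiC against CDC (87.5%) and above it in both comparisons with the clone (100%). It is a share of 8 genes, in data in which most genes differ. The sizes were larger: 4, 6 and 6 of the 8 passed with at least 2-fold change, where 30.1%, 21.7% and 35.9% of all genes did, and the median size of the log2 change was 1.14, 2.98 and 2.36 against 0.61, 0.44 and 0.71 over all genes tested. The members were chosen with earlier results of these data known, so these contrasts in share and in size are descriptions and carry no test. Libraries did not overlap for 7, 8 and 8 of the 8, against 81.5%, 72.1% and 84.0% of all genes. The clone lay between CDC and pEpiC for 3 of the 10 members, Igf2, Igfbp3 and Igfbp5, and outside their range for the other 7 in CPM, and 33.9% of the 12621 genes tested in all comparisons lay between. For 2 of the 7, Igf1r and Igfbp6, that placement is not settled, since with the length offset Igf1r lay between and Igfbp6 was nearly level in CDC-EpiC and pEpiC. Unlike the counts over 8 genes, this count over 10 includes Igf2 and Igfbp6, whose own values chose them, so it is a description.

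The binding proteins can be set against each other per transcript length. Their summed level was 1759 ± 70.1 TPM in CDC, 2999 ± 196 in CDC-EpiC and 3606 ± 190 in pEpiC. The sum was lowest in CDC in every unit, but the order of the other kinds depends on the unit: in FPKM it was 1625 ± 79.0 in CDC-EpiC against 1521 ± 97.5 in pEpiC, and in CPM 3244 ± 233 against 2637 ± 162. In CDC, Igfbp7 made up 44.7% ± 0.845 of the sum, Igfbp4 42.9% ± 0.230 and Igfbp2 11.6% ± 0.775. In CDC-EpiC a single gene dominated, with Igfbp4 at 82.3% ± 0.835, followed by Igfbp6 at 7.81% ± 0.988, Igfbp3 at 6.87% ± 1.23 and Igfbp7 at 2.75% ± 0.121. In pEpiC, Igfbp7 took 56.4%, 55.1% and 57.5% in the 3 libraries, and the means of the others were Igfbp4 17.3% ± 0.914, Igfbp3 14.0% ± 0.285, Igfbp5 6.26% ± 0.644 and Igfbp6 5.53% ± 0.433. Each kind thus had its own mixture, with spreads between libraries far smaller than the differences in the leading shares between kinds. Without scaling to length, in CPM, Igfbp4 led in CDC at 57.6% and Igfbp5 was at 20.9% in pEpiC. Igfbp4 at 2468 ± 166 TPM ranked 61 among all genes in CDC-EpiC, and Igfbp7 at 2030 ± 85.9 TPM ranked 67 in pEpiC. In CDC, Igfbp7 ranked 195 at 787 ± 41.7 TPM. At the other end of the family stood Igfbp5 in CDC (0.270 TPM), Igf1 in CDC-EpiC (0.307 TPM) and Igf2 in pEpiC (2.35 TPM).

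**Figure D3:**
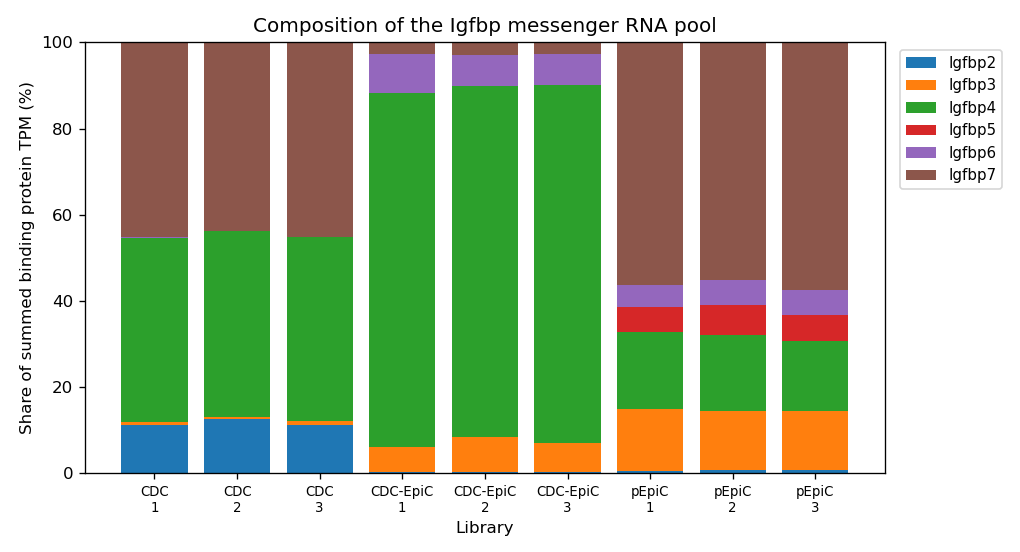
Share of each binding protein gene in the summed TPM of the 6 binding protein genes, in percent, for each of the 9 libraries. Igfbp7 and Igfbp4 share most of the CDC pool, Igfbp4 alone takes over 80% in each CDC-EpiC library, and Igfbp7 leads in pEpiC, where Igfbp3, Igfbp5 and Igfbp6 are all visible.

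Other genes that act with the family were counted from a list of 54 genes, of which 52 were in the table and 46 were tested in each comparison. In pEpiC against CDC 39 passed, 28 higher and 11 lower, in CDC-EpiC against CDC 29 passed, 14 higher and 15 lower, and in CDC-EpiC against pEpiC 43 passed, 15 higher and 28 lower. These are 84.8%, 63.0% and 93.5% of the genes tested, against 78.3%, 68.8% and 81.9% of all genes. The median size of change was 0.45, 0.53 and 0.70, near the 0.61, 0.44 and 0.71 of all genes, so the list as a whole moved about as far as genes in general. Some of its groups held much larger changes.

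Proteases that free ligand from binding proteins, and their inhibitors, had 6 genes tested. Pappa, a metalloprotease that cuts Igfbp4 and Igfbp5, was at 21.0, 16.5 and 21.1 CPM in CDC and at 104, 108 and 107 in pEpiC, but had 3, 3 and 4 counts in the CDC-EpiC libraries (0.133, 0.136 and 0.177 CPM). It was higher in pEpiC than in CDC (log2 2.40, SE 0.09, adjusted p 5.9e-09). In the clone its log2 change was −6.99 against CDC and −9.43 against pEpiC. Pappa entered both fits with the clone only through the other kind, so its calls there, counted above, are given without p-values. The sizes in the clone rest on the 3, 3 and 4 counts. Over the alternatives they shrank to −2.08 against CDC and −4.67 against pEpiC. The kind with the most Igfbp4 message thus had the least Pappa message. Its relative Pappa2 was low throughout, at 1.61 CPM in CDC, 0.342 in CDC-EpiC (5, 7 and 11 counts) and 1.71 in pEpiC. The log2 change of Pappa2 in the clone was −2.22 against CDC and −2.31 against pEpiC. Pappa2 too entered both fits with the clone only through the other kind, so these calls are given without p-values. Between pEpiC and CDC its log2 change was 0.04 (adjusted p 0.844), which was −0.55 with the length offset (adjusted p 0.0213).

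Stc1 and Stc2 encode stanniocalcins, which inhibit Pappa. Stc1 was at 65.0 ± 4.27 CPM in CDC, 41.3 ± 4.33 in CDC-EpiC and 10.9 ± 3.44 in pEpiC, lower than CDC by log2 −0.66 in the clone (adjusted p 7.8e-06) and −2.62 in pEpiC (adjusted p 3.4e-07), and 1.92 higher in the clone than in pEpiC (log2, adjusted p 5.0e-06). Stc2 had another order, at 16.9 ± 1.49, 9.99 ± 0.880 and 25.5 ± 2.23 CPM (log2 −0.76 in the clone and 0.55 in pEpiC against CDC, and −1.35 between them, adjusted p 1.1e-05, 0.00026 and 4.2e-07). Htra1, a serine protease, was at 351 ± 51.2 CPM in CDC-EpiC, above CDC at 130 ± 13.0 (log2 1.43, adjusted p 1.3e-08) and pEpiC at 158 ± 6.86 (log2 1.15, adjusted p 1.5e-06). The difference of Htra1 between pEpiC and CDC was 0.24 (log2, adjusted p 0.0147), and its adjusted p was 0.341, with log2 0.07, without CDC libraries 1 and 2, and 0.0683, 0.0620, 0.0508 and 0.0647 without CDC library 1, CDC library 2, pEpiC library 2 or pEpiC library 3. Htra3 differed by 0.21 between pEpiC and CDC (log2, adjusted p 0.0112, but 0.0524 without pEpiC library 1), by −0.31 between the clone and pEpiC (adjusted p 0.00050) and by −0.06 between the clone and CDC (adjusted p 0.451).

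The Igf2bp genes encode proteins that bind Igf2 messenger RNA, and Igf2bp1 and Igf2bp3 are mostly active before birth. Igf2bp1 was at 32.3, 33.7 and 29.0 CPM in CDC, 8.32, 7.76 and 8.07 in CDC-EpiC, and 3.04, 4.36 and 4.16 in pEpiC. The order of kinds was that of Igf2 itself, without overlap. Igf2bp1 was lower than in CDC in the clone (log2 −1.98, SE 0.09, adjusted p 6.1e-11) and in pEpiC (log2 −3.09, SE 0.13, adjusted p 1.5e-08), and higher in the clone than in pEpiC (log2 1.06, SE 0.15, adjusted p 8.2e-05). Igf2bp3 was also highest in CDC, at 51.2 ± 2.45 CPM against 9.92 ± 0.912 in CDC-EpiC (log2 −2.37, adjusted p 4.8e-12) and 22.2 ± 2.00 in pEpiC (log2 −1.25, adjusted p 2.0e-07), and it was lower in the clone than in pEpiC (log2 −1.16, adjusted p 1.9e-06). Igf2bp2 was at 117 ± 12.5, 105 ± 3.27 and 114 ± 7.28 CPM and passed in no comparison (adjusted p 0.393, 0.105 and 0.0752 in edgeR), with log2 changes of −0.08, −0.16 and −0.12. DESeq2 called it in no comparison either, and each comparison had at least 1 alternative in which it passed, among them RLE scaling in CDC-EpiC against pEpiC (adjusted p 0.0443).

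The mannose 6-phosphate sorting genes work in the pathway that Igf2r serves. In CDC-EpiC against CDC 0 of 4 passed in edgeR (unadjusted p under 0.05 for 0 of 4, and DESeq2 also called 0), with log2 changes of 0.05 for M6pr, −0.02 for Gnptab, −0.02 for Gnptg and 0.18 for Nagpa, while 68.8% of all genes passed. Nagpa passed in some alternatives (lowest adjusted p 0.0440). In pEpiC all 4 differed from CDC, as did 78.3% of all genes: Gnptab (log2 0.37, adjusted p 0.0016), Gnptg (0.43, adjusted p 0.00021) and Nagpa (0.33, adjusted p 0.0026) were higher. M6pr, which encodes the small mannose 6-phosphate receptor, was lower (log2 −0.25, adjusted p 0.0089), though it was 0.25 on the TPM scale and −0.07 with the length offset (adjusted p 0.420). In the clone against pEpiC, M6pr was higher (log2 0.26, adjusted p 0.00048) and Gnptab (−0.44, adjusted p 2.5e-05), Gnptg (−0.49, adjusted p 7.6e-05) and Nagpa (−0.19, adjusted p 0.0306) were lower. With the length offset the adjusted p of Gnptab was 0.739 in pEpiC against CDC and 0.274 in the clone against pEpiC. M6pr in the clone against pEpiC was at log2 0.11 with the offset (adjusted p 0.0509) and −0.12 on the TPM scale. The adjusted p of Nagpa in the clone against pEpiC was 0.108 and 0.0712 without CDC-EpiC library 1 or 3. It was 0.0737 and 0.0665 without pEpiC library 1 or 2, and 0.0525 with no filter.

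Of the family genes outside the 10, Insr, the insulin receptor, was at 32.0 ± 3.32 CPM in CDC, 35.7 ± 3.62 in CDC-EpiC and 68.1 ± 0.754 in pEpiC, higher in pEpiC than in CDC (log2 1.04, adjusted p 5.2e-07) and lower in the clone than in pEpiC (log2 −0.93, adjusted p 6.8e-07). Its log2 change between the clone and CDC was 0.15 (adjusted p 0.170), and it passed with the length offset (adjusted p 0.0335). Igfbp1, a binding protein secreted mainly by liver, had 20, 15 and 0 counts in CDC libraries 1, 2 and 3, 1, 4 and 4 in CDC-EpiC, and 1, 1 and 0 in pEpiC. It was thus seen in the CDC libraries that also held Alb, and it was too low to test. Igfals, Igfbpl1 and Insrr were too low to test, and Ins1 and Ins2 were not in the table.

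**Figure D4:**
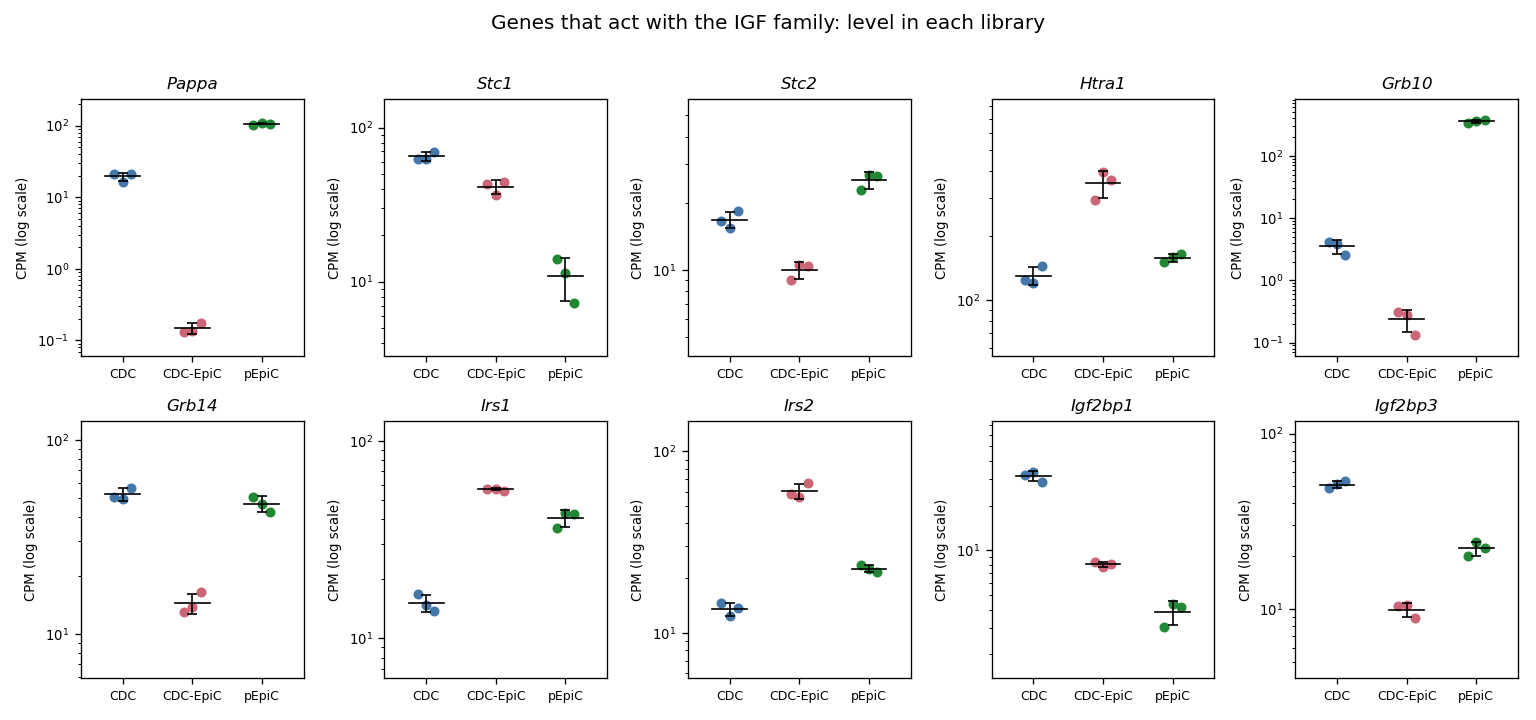
Level of 10 genes that act with the IGF family in every library, in TMM-scaled CPM on log axes that differ between panels. Points are single libraries, lines the mean and error bars the SD (n = 3). Pappa and Grb10 are highest in pEpiC and lowest in CDC-EpiC, Irs1 and Irs2 are lowest in CDC, and Igf2bp1 and Igf2bp3 are highest in CDC.

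Among the adaptors that carry or limit the receptor signal, 8 of 9 passed in pEpiC against CDC (5 higher, 3 lower), 8 in CDC-EpiC against CDC (6 higher, 2 lower) and 9 in CDC-EpiC against pEpiC (6 higher, 3 lower), against 78.3%, 68.8% and 81.9% of all genes. Grb10, an imprinted adaptor that restrains insulin and IGF receptor signalling, was at 4.15, 3.86 and 2.54 CPM in CDC and at 331, 367 and 374 in pEpiC. CDC-EpiC had 7, 6 and 3 counts of it. The log2 change of Grb10 was 6.62 in pEpiC against CDC (SE 0.14, adjusted p 2.5e-10). In the clone it was −3.86 against CDC and −10.52 against pEpiC. Grb10 entered both fits with the clone only through the other kind, so its calls there, counted above, are given without p-values. In the clone the sizes for Grb10 rest on the 7, 6 and 3 counts. Over the alternatives Grb10 shrank to −1.02 against CDC and −7.29 against pEpiC. Its relative Grb14 was lower in the clone, at 14.4 ± 1.75 CPM against 52.3 ± 3.88 in CDC (log2 −1.87, adjusted p 1.6e-10) and 46.8 ± 4.24 in pEpiC (log2 −1.70, adjusted p 9.5e-08).

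Irs1 and Irs2, insulin receptor substrates that pass the signal on, were higher in CDC-EpiC and in pEpiC than in CDC. Irs1 was at 15.1 ± 1.52 CPM in CDC against 56.9 ± 0.711 in CDC-EpiC (log2 1.90, adjusted p 3.3e-11) and 40.6 ± 3.87 in pEpiC (log2 1.38, adjusted p 5.1e-07). Irs2 was at 13.5 ± 1.12 CPM in CDC, 60.3 ± 5.63 in CDC-EpiC (log2 2.15, adjusted p 2.4e-11) and 22.6 ± 0.965 in pEpiC (log2 0.69, adjusted p 2.6e-05), and it was higher in the clone than in pEpiC (log2 1.41, adjusted p 5.4e-08). Irs3 had 1, 2 and 0 counts in CDC, 10, 12 and 13 in CDC-EpiC and 38, 38 and 37 in pEpiC. It entered both fits with CDC only through the other kind, so its calls against CDC, counted above, are given without p-values. Their size is not settled: over the alternatives the log2 change was 0.45 to 6.55 in the clone and 1.38 to 8.21 in pEpiC. The clone was lower than pEpiC (log2 −1.65, adjusted p 8.4e-05). Sh2b2 was lower in pEpiC than in CDC (log2 −0.90, adjusted p 2.8e-05) and higher in the clone than in pEpiC (log2 0.69, adjusted p 0.00016).

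Of 23 genes of the PI3K, AKT and mTOR branch downstream, 19 passed in pEpiC against CDC (15 higher, 4 lower), 14 in CDC-EpiC against CDC (7 higher, 7 lower) and 21 in CDC-EpiC against pEpiC (5 higher, 16 lower). These are 82.6%, 60.9% and 91.3%, against 78.3%, 68.8% and 81.9% of all genes. In pEpiC against CDC the genes named are Pik3ca, the catalytic subunit (log2 1.39, adjusted p 3.3e-08), the transcription factor Foxo1 (1.32, adjusted p 2.7e-06), the regulatory subunit Pik3r1 (1.04, adjusted p 8.9e-07) and the kinase Gsk3b (1.04, adjusted p 3.7e-06). In CDC-EpiC against CDC they are Pik3r3 (log2 −2.39, adjusted p 4.8e-10), Mtor (1.11, adjusted p 1.2e-08), Foxo4 (0.96, adjusted p 9.0e-08) and Eif4ebp1 (−0.64, adjusted p 6.9e-06). In CDC-EpiC against pEpiC they are Pik3r3 (log2 −2.0, adjusted p 9.3e-07), Pik3ca (−1.37, adjusted p 1.3e-08), Pik3r1 (−1.30, adjusted p 1.5e-08) and Rps6kb1 (−1.23, adjusted p 1.2e-08).

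The genes whose pattern was most like that of a member were found over the 9 libraries among 10198 genes with at least 10 CPM in their highest kind, as the smallest root mean square difference (RMS) of log2(CPM + 1) centred on its mean. The 9 libraries fall into 3 kinds, so a likeness is mostly that of 3 means, and it is a description. Nearest to Igf2 were Crct1 (RMS 0.70), Lce1g (0.73), 4930486L24Rik (0.98), Anxa8 (0.98) and Asb5 (1.0). Crct1 was at 79.3 CPM in CDC, 4.53 in CDC-EpiC and 1.74 in pEpiC. Nearest to Igfbp6 were Adcyap1r1 (0.83), Agtr1a (0.95), Atp9a (1.03), Igfbp3 (1.11) and Lamc3 (1.17), and Adcyap1r1 was at 2.10, 92.3 and 48.1 CPM. By Pearson's r in place of the RMS, 0 of the 5 for Igf2 and 1 of the 5 for Igfbp6 were among the nearest 5. Each other member had 1 nearest gene, which was Nov for Igf1 (0.21), Pde12 for Igf1r (0.06), Lrp1 for Igf2r (0.07), Il6 for Igfbp2 (0.33), Fmo2 for Igfbp3 (0.56), Cd82 for Igfbp4 (0.06), Efemp1 for Igfbp5 (0.58) and Hspb7 for Igfbp7 (0.13). Lrp1, like Igf2r a large receptor that takes up ligands, was at 1250, 642 and 3569 CPM in CDC, CDC-EpiC and pEpiC.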

How the data were processed

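Messenger RNA of CDC, CDC-EpiC and pEpiC was sequenced (9 libraries, 3 per kind). The submitters' processing notes name mm10, HISAT2 2.0.4, Bowtie2 2.2.5, RSEM 1.2.12 and DESeq2 1.4.5; the annotation and the strand setting are not given in the sources used here. For each library the deposited values are expected counts, which estimate how many reads came from a gene (30.3% of them not whole), and the FPKM and TPM that the authors made from them. Their 9 columns of means were not used. Groups and columns came from the labels.

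Expected counts were rounded and fitted in edgeR 4.0.16 (R 4.3.3) on the 6 libraries of each pair of kinds, with filterByExpr (minimum count 10, minimum total 15), TMM, the quasi-likelihood test and Benjamini-Hochberg adjustment over all genes tested, at 0.05. Each SE is the size of the log2 change over the square root of F. CPM are counts per 1000000 after TMM over all 9 libraries, and levels of different genes were compared in TPM. The script was tested on simulated data. The members and the gene lists were chosen with earlier results of these data known. The genes named are the members, each tested gene of the family, protease, Igf2 mRNA binding and mannose 6-phosphate lists, and up to 5 adaptors and 5 PI3K, AKT and mTOR genes per comparison that passed with the largest change. A gene that this rule names is not reported here. Alternatives were DESeq2 1.42.0, RLE, no filter, all 9 libraries in 1 fit, limma 3.58.1 on log2(TPM + 1) and log2(TPM + 0.1), a transcript length offset, a replicate block, leaving out each library and leaving out CDC libraries 1 and 2. Library numbers did not pair the kinds (correlations of deviations between libraries of the same number −0.09 to 0.14). FPKM replaced TPM as an alternative for the shares. Reads had no molecular identifiers. Tables and figures were made with matplotlib 3.10.9, pandas 2.3.3 and NumPy 2.4.6 under Python 3.11.15.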

Additional observations from a re-analysis of the deposited data

How the results depend on the processing

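The number of tested members that passed was 6 to 8, 8 and 8 over all alternatives in pEpiC vs CDC, CDC-EpiC vs CDC and CDC-EpiC vs pEpiC. The replicate block, in which libraries of the same number are paired, gave 7, 8 and 8 members, 39, 29 and 43 genes of the IGF-related list and 10604, 8831 and 11096 genes in all, and the numbers were not found to pair the libraries. Of 440 member changes recomputed, 420 kept their direction and their side of the threshold or moved within their spread. The exceptions with a test were Igf1 in pEpiC vs CDC (−0.26 with the length offset, 0.16 to 0.32 leaving out 1 library) and Igf1r, which turned to 0.37 and 0.39 on the log2(TPM + 1) and log2(TPM + 0.1) scales in pEpiC vs CDC and to 0.52 with the length offset in CDC-EpiC vs pEpiC. On the TPM scales genes in general had a median change of 0.41 and 0.50 in pEpiC vs CDC and −0.33 and −0.38 in CDC-EpiC vs pEpiC, against 0.02 and −0.02 with counts, and 74.5% of calls in the former were then higher in pEpiC, against 50.8% with counts, so changes of the size of that of Igf1r lie within this shift. In CDC-EpiC vs pEpiC 32.9% of calls were higher in the clone on the TPM scale, against 49.3%. Igf2 moved from −6.86 to −5.79 and from 2.13 to 1.36 with log2(TPM + 1), and in CDC-EpiC vs CDC Igfbp5 from 2.63 to 1.13, Igf1 from −4.79 to −2.78, Pappa from −6.99 to −2.08 and Grb10 from −3.86 to −1.02; this pseudocount shrinks changes of low genes.

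Related genes that changed sign all had small changes. In pEpiC vs CDC, Igf2bp2 was at 0.42 and 0.43 and M6pr at 0.25 and 0.25 on the 2 TPM scales, Pappa2 was at −0.55 with the length offset, and without CDC libraries 1 and 2 Pappa2 was at −0.13. In CDC-EpiC vs CDC, the TPM scales gave 0.015 and 0.015 for Htra3, 0.065 and 0.068 for Gnptab and 0.056 and 0.058 for Gnptg, the length offset gave 0.024 for Gnptg, and M6pr was at −0.086 without CDC libraries 1 and 2. In CDC-EpiC vs pEpiC, M6pr was at −0.12 and −0.12 on the TPM scales and Igf2bp2 at 0.10 with the length offset. Leaving out 1 library gave −0.045 to 0.13 for Pappa2 and −0.13 to 0.0028 for Igf2bp2 in pEpiC vs CDC, and −0.0031 to 0.13 for M6pr, −0.075 to 0.079 for Gnptab and −0.091 to 0.026 for Gnptg in CDC-EpiC vs CDC. In CPM, which is not scaled to length, Igfbp7 made up 32.1% of the binding proteins in CDC and 35.1% in pEpiC, and Igfbp4 84.8% in CDC-EpiC. The causes of these changes were not tested. With 16 to 22 counts in each CDC library, Igfbp5 and Igfbp6 in CDC rest on the fewest counts of the members in that kind.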
